A study of Mus musculus with 132 samples.

Results

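Day 4 Flk1+ mesoderm of P2-CTCF-KO clones was compared with that of wild-type clones by poly(A)-minus RNA-seq, which keeps transcripts without a poly(A) tail and with them much unspliced RNA. The libraries were chosen by their labels, 3 P2-CTCF-KO and 3 wild-type, and are 6 of the 23 poly(A)-minus RNA-seq libraries and of the 132 samples of the series. All cells derive from E14-TG2a, a male mouse embryonic stem cell line of the 129/Ola strain. They were differentiated in serum-free medium with BMP4, bFGF and Activin A, and cells with surface Flk1 were sorted at day 4. The P2-CTCF-KO clones D10.1, D2.1 and E9.1 carry a CRISPR/Cas9 deletion of the CTCF site just upstream of the P2 promoter of Runx1, with 2 deletion alleles found by sequencing and single colonies isolated, by the methods of the study. The wild-type clones were C8.1, C6.1 and B9.3. How they were derived, or whether they went through editing, is not given in the sources used here. Each library is 1 clone, so p-values measure the spread between single clones, which includes differences between clones that the deletion did not make. Counts were taken over exons and introns of whole genes, so they are no check of the deletion. The spread was estimated together with 3 mesoderm libraries of P1-CTCF-KO clones (E7.1, E7.2 and another clone named E9.1), which lack the CTCF site of the other Runx1 promoter, P1. By the study's supplement, the P1-CTCF-KO sub-clones came from 2 targeting events and the P2-CTCF-KO sub-clones from 3. Clones of a genotype may therefore share an event, while each was counted here as independent. The same genotypes at day 7, sorted as Ter119-, CD41+ and CD45- hematopoietic progenitor cells (HPCs) after further culture with SCF and VEGF, are given beside the mesoderm where they bear on a gene.

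Runx1 encodes a transcription factor needed for blood formation from hemogenic endothelium, and its P2 promoter is the first to be used in mesoderm. Flk1, the VEGF receptor encoded by Kdr, marks mesoderm that can give rise to blood, endothelium and heart. Such cells pass from a primitive streak program, with genes such as Mixl1 and Eomes, to a hemato-endothelial program led by factors such as Tal1, Fli1 and Erg, and CTCF together with cohesin shapes the chromatin loops in which promoters and enhancers meet.

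The labelled identity was read against its markers as CPM, the counts scaled to a common library size with edgeR's TMM factors. Kdr stood at 27.1, 19.4 and 11.96 CPM in wild-type B9.3, C6.1 and then C8.1, and at 17.8, 18.9 and 21.7 CPM in the P2-CTCF-KO clones D10.1, D2.1 and E9.1, in the order used throughout. The groups overlapped in Kdr (log2 fold change -0.01, SE 0.27, edgeR adjusted p = 0.999). Hand1, a lateral mesoderm factor, was present in all 6 libraries and overlapped between the groups, while Etv2, which opens the hemato-endothelial program, was at 0.333 CPM or less in each and was left out by the filter on low counts. Other mesoderm markers of this check differed, with values given below. In all P2-CTCF-KO clones Pdgfra and Mesp1 lay above all wild-type clones and Tal1 lay below them, while Lmo2 was not called. The lists of erythroid, megakaryocyte and leukocyte, neuroectoderm and endoderm markers each summed to less than Kdr alone in every library. The sum of 20 pluripotency genes did not. It was 14.6, 31.7 and 22.6 CPM in wild-type clones and 43.0, 46.1 and 41.2 CPM in P2-CTCF-KO clones, above Kdr in each but B9.3. Of 10 primitive erythroid genes none was tested and their summed level was at most 0.458 CPM, that of 13 megakaryocyte and leukocyte genes at most 1.54 CPM, that of 11 neuroectoderm genes at most 3.35 CPM and that of 15 endoderm genes at most 9.04 CPM in any of the 6 libraries. The endoderm sum was 5.08, 4.31 and 3.96 CPM in wild-type against 3.90, 9.04 and 6.35 CPM in P2-CTCF-KO clones. The neuroectoderm sum was 2.21, 0.616 and 0.851 CPM against 3.35, 2.38 and 1.94 CPM. The erythroid sum (0.458, 0.352 and 0.128 CPM against 0.0507, 0.0680 and 0.0538 CPM) and the megakaryocyte and leukocyte sum (1.54, 0.352 and 1.19 CPM against 0.304, 0.136 and 0.376 CPM) leaned the other way. Depth limited the comparison: the 9 mesoderm libraries held from 18233679 to 24406998 counts, but from 88.8% to 91% of them fell on ribosomal RNA and entries listed at several loci, so that 1897917 to 2288976 counts remained for the other genes. Wild-type C6.1 and P2-CTCF-KO D2.1 stood apart, with TMM factors of 0.525 and 0.603 against 1 to 1.67 in the other mesoderm libraries, and with 85.1% and 83.0% of the remaining counts in 20 entries against at most 75.4% elsewhere.

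The sequences behind the comparison are shown first, all from the mm9 genome, 5′ to 3′ on the minus strand of the chromosome, which is the strand of these genes, and upstream of an annotated start site. The window of the deleted site is the center of the CTCF peak of 416B cells, a mouse myeloid progenitor line, at chr16:92698929-92699228, from 1356 to 1655 bases upstream of the P2 start at 92697573. A peak of open chromatin in mesoderm, called by ATAC-seq, lies inside it at chr16:92698988-92699074, and which bases each clone lost was not analysed here. The ATAC-seq samples are labelled wild-type and came from a Runx1 reporter line, by the study's methods. Capitals mark the CTCF core letters, read here as GCCCCCT, the reverse complement of AGGGGGC.
Runx1 P2 CTCF peak: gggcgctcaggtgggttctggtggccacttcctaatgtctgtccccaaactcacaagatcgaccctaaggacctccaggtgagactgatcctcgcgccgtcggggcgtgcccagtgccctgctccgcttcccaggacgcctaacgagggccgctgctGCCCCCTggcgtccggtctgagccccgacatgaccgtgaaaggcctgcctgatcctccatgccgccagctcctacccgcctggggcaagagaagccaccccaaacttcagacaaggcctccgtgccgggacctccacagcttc
 The other windows lie in the mesoderm ATAC-seq peaks nearest the starts of the genes called below, at chr8:125223010-125223309 for Cbfa2t3, chr12:32746162-32746336 for Prkar2b and chr1:69733769-69733935 for Ikzf2. Their capitals mark GGAAG, the core bound by ETS factors, and CAGCTG, an E-box.
Cbfa2t3: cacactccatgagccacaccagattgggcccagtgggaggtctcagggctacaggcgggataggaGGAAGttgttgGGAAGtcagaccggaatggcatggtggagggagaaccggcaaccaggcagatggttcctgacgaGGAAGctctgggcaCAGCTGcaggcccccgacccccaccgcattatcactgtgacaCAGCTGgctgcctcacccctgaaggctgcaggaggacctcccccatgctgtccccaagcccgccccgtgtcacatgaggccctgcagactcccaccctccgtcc
Prkar2b: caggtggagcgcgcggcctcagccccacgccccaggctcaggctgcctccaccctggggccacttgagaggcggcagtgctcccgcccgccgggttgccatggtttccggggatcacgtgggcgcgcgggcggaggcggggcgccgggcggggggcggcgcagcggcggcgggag
Ikzf2: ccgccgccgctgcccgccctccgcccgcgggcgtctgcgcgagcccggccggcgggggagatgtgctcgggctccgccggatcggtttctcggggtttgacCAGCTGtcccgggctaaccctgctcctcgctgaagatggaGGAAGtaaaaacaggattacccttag
 On both strands, AGGGGGC matched once in the P2 window and in 16.8% of 44513 CTCF peak windows of that length, and it was searched for after a longer form of the core, CC and AG 3 bases apart followed after 2 more bases by GGC, had 0 matches there and matched in 23585 of these windows. The Cbfa2t3 window held GGAAG 3 times, as did at least once 72.3% of 76766 mesoderm ATAC-seq peaks at that length, and CAGCTG 2 times (20.6%). The Ikzf2 window held each once (53.5% and 13.4% at its length), and the Prkar2b window neither (55.1% and 13.9%). The exact RUNX letters TGTGGT and the exact GATA letters AGATAA had 0 matches in the 3 gene windows, against 12.5% to 19.9% and 14.3% to 21.3% of peaks. Wider forms, such as the RUNX motif YGYGGT (Y is C or T) given in the paper, were not searched, so these windows may hold such sites. The Cbfa2t3 window holds accgca and ttatca, which read TGCGGT and TGATAA on the other strand. No match in these windows overlapped another, and the matches are a description of letters only.

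In mesoderm, 3 genes were lower in P2-CTCF-KO than in wild-type clones and 0 were higher, by edgeR's quasi-likelihood test on 8778 genes at an adjusted p under 0.05 and a log2 fold change beyond 1. They were Cbfa2t3, which encodes a corepressor of the ETO family that works with TAL1 and GATA factors in blood progenitors; Ikzf2, which encodes Helios, a zinc finger factor of the Ikaros family; and Prkar2b, which encodes a regulatory subunit of protein kinase A. The 3 genes were 0.0342% of those tested, and the share called higher was 0.0%. At an unadjusted p under 0.05, 857 genes were lower and 551 higher.

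Cbfa2t3 was at 2.62, 2.46 and 2.38 CPM in the wild-type clones and at 0.253, 0.340 and 0.484 CPM in the P2-CTCF-KO clones, or 63, 28 and 56 counts against 5, 5 and 9. The wild-type clones lay close together and all P2-CTCF-KO clones far below them. The mean was 6.93-fold lower (2.49 ± 0.12 CPM against 0.359 ± 0.117 CPM, SD, n = 3 clones each), with a log2 fold change of -2.78 (SE 0.31, edgeR adjusted p = 0.0224). Ikzf2 was at 3.16, 2.46 and 4.08 CPM in the wild-type clones and at 0.709, 0.612 and 0.376 CPM in the P2-CTCF-KO clones. Again the groups did not overlap, and the mean was 5.72-fold lower (log2 fold change -2.52, SE 0.31, edgeR adjusted p = 0.0264). Prkar2b was at 3.87, 2.20 and 4.08 CPM in the wild-type clones and at 0.557, 0.544 and 0.968 CPM in the P2-CTCF-KO clones. Its lowest wild-type clone, C6.1, was still above the highest P2-CTCF-KO clone, E9.1, and the mean was 4.91-fold lower (log2 fold change -2.30, SE 0.31, edgeR adjusted p = 0.0371). With wild-type C8.1 or any 1 of the P2-CTCF-KO clones left out, edgeR called 0 genes, and without wild-type C6.1 it called 127, whereas DESeq2 called all 3 genes in each of the 6 fits that left out a clone.

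**Figure D1:**
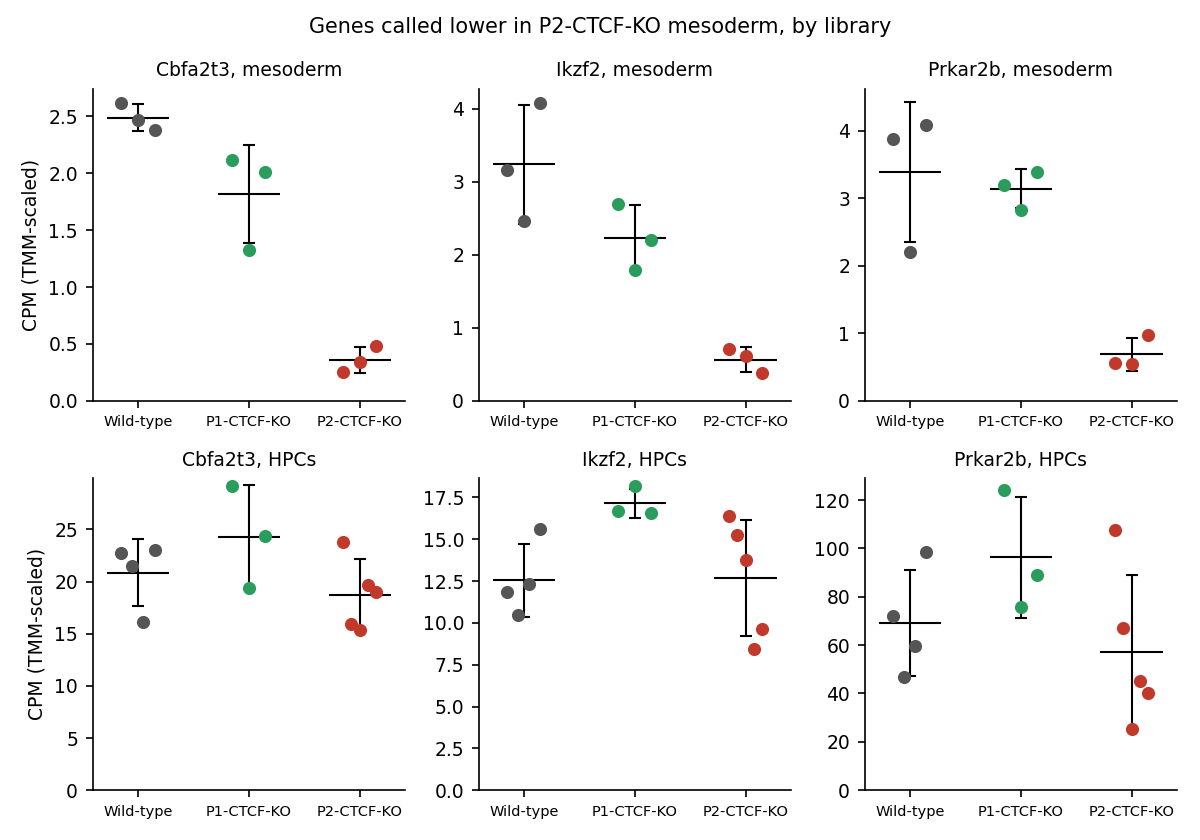
CPM of Cbfa2t3, Ikzf2 and Prkar2b in each library (points) with the mean and SD of each genotype (lines), in mesoderm above and HPCs below, each axis from 0. In mesoderm the P2-CTCF-KO points lie at 0.968 CPM or less and below all wild-type points, and in HPCs the genotypes overlap; CPM scales are set within a stage.

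In P1-CTCF-KO clones the 3 genes stood above their P2-CTCF-KO levels. Cbfa2t3 stood at 2.12, 1.32 and 2.01 CPM in the P1-CTCF-KO clones E7.1, E7.2 and E9.1, Ikzf2 at 2.70, 1.79 and 2.20 CPM and Prkar2b at 3.20, 2.82 and 3.39 CPM, so that all 3 P2-CTCF-KO clones lay below all P1-CTCF-KO clones in each gene. The tests of P2-CTCF-KO against P1-CTCF-KO did not pass the threshold: Cbfa2t3 had a log2 fold change of -2.31 (edgeR adjusted p = 0.0934), Ikzf2 of -1.96 (0.181) and Prkar2b of -2.16 (0.0934). In that comparison edgeR called 0 genes (0.0% of 8778, with 587 lower and 400 higher at an unadjusted p under 0.05), while DESeq2 called 73 lower (0.975% of 7489) and 19 higher (0.254%). P1-CTCF-KO against wild-type, which shares the wild-type libraries, had 0 calls with either tool and 168 genes at an unadjusted p under 0.05 in edgeR. It leaned the same way in the genes that DESeq2 called in P2-CTCF-KO against wild-type mesoderm, given below. Of the 143 lower genes 120 were below 0 in P1-CTCF-KO (median log2 fold change -0.34, -0.01 over all genes). Of the 25 higher genes 5 were below 0 (median 0.28). With shared wild-type libraries the 2 comparisons are not independent.

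At the HPC stage the 3 genes were expressed in all genotypes. Cbfa2t3 was at 22.7, 21.5, 16.1 and 23.1 CPM in 4 wild-type libraries from 3 clones and at 23.8, 15.95, 15.4, 19.7 and 18.99 CPM in 5 P2-CTCF-KO libraries from 3 clones, and the groups overlapped. The log2 fold changes in HPCs were -0.15 for Cbfa2t3, 0.015 for Ikzf2 and -0.28 for Prkar2b, and edgeR called 0 genes there (0.0% of 7422, with 145 at an unadjusted p under 0.05), as did DESeq2. How far the effect of P2-CTCF-KO differed between mesoderm and HPCs was tested in 1 fit of 21 libraries, and this difference passed the threshold for 2 genes (0.0218% of 9170), both lower in mesoderm relative to HPCs. They were Cbfa2t3 (log2 difference -2.64, SE 0.34, edgeR adjusted p = 0.00214) and Ikzf2 (-2.54, SE 0.38, adjusted p = 0.00789). Prkar2b had a log2 difference of -2.03, which did not pass (adjusted p = 0.297).

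Close relatives of the 3 genes did not all move with them. Runx1t1, the ETO family member known from its fusion with RUNX1 in leukemia, was at 6.37, 2.73 and 4.34 CPM in wild-type and at 1.52, 0.748 and 0.699 CPM in P2-CTCF-KO clones, without overlap (log2 fold change -2.18, DESeq2 adjusted p = 0.000932, edgeR 0.102). Cbfa2t2, the third ETO family gene, was at 5.37, 5.19 and 5.23 CPM against 4.92, 4.42 and 3.87 CPM (log2 fold change -0.26, adjusted p = 0.450). Among the protein kinase A subunits, the groups overlapped for the catalytic subunits Prkaca (log2 fold change -0.20) and Prkacb (-0.38) and for the regulatory subunits Prkar1a (-0.31), Prkar1b (0.59) and Prkar2a (0.50), with adjusted p from 0.405 to 0.731. Of 27 tested genes of cyclic AMP and protein kinase A signalling, Prkar2b was the single one called, beside 0.0342% of all genes called lower by edgeR and 2.0% by DESeq2. The median log2 fold change of the list was -0.23 against 0.01 over all genes tested. Runx1 itself overlapped between the groups, at 2.87, 9.15 and 10.98 CPM against 1.47, 5.50 and 4.89 CPM (log2 fold change -0.96, SE 0.58, edgeR adjusted p = 0.447).

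DESeq2, with the same thresholds and the same 9 libraries, called 143 genes lower (2.0% of 7161) and 25 higher (0.349%). All 168 had an unadjusted p under 0.05 in edgeR, whose adjusted p for them reached 0.196. DESeq2 gave an adjusted p to 7161 genes and edgeR to 8778, and the genes below are called by DESeq2 alone unless stated. In 133 of the 143 lower genes all P2-CTCF-KO clones lay below all wild-type clones, and in 25 of the 25 higher genes all lay above, against 10.12% and 9.22% of all tested genes that lay wholly below or above. The calls were made on these same libraries, so this follows largely from the calls and adds no evidence to them. When each of the 6 clones was left out in turn, DESeq2 called from 48 (without P2-CTCF-KO D2.1) to 385 genes (without wild-type C6.1), and 20 of the lower and 2 of the higher genes were called in every such fit. With C6.1 and D2.1 both left out it called 199, and edgeR 0. The 8 lineage markers followed by the study, which were chosen on these samples and are no independent evidence, were among the DESeq2 calls, T and Eomes higher and Pecam1, Etv6, Ikzf1, Ikzf2, Erg and Flt1 lower, and apart from Ikzf2 they had edgeR adjusted p from 0.127 to 0.155. Erg was at 5.99, 0.176 and 1.23 CPM in the wild-type clones (144, 2 and 29 counts) and had 0 counts in all P2-CTCF-KO clones, which set against a floor of 3 counts per library is at least 14.3-fold lower than the wild-type mean of 2.47 ± 3.10 CPM (SD, n = 3). That bound rests on B9.3 and was 4.09-fold without it, and C6.1 itself lay under the floor.

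**Figure D2:**
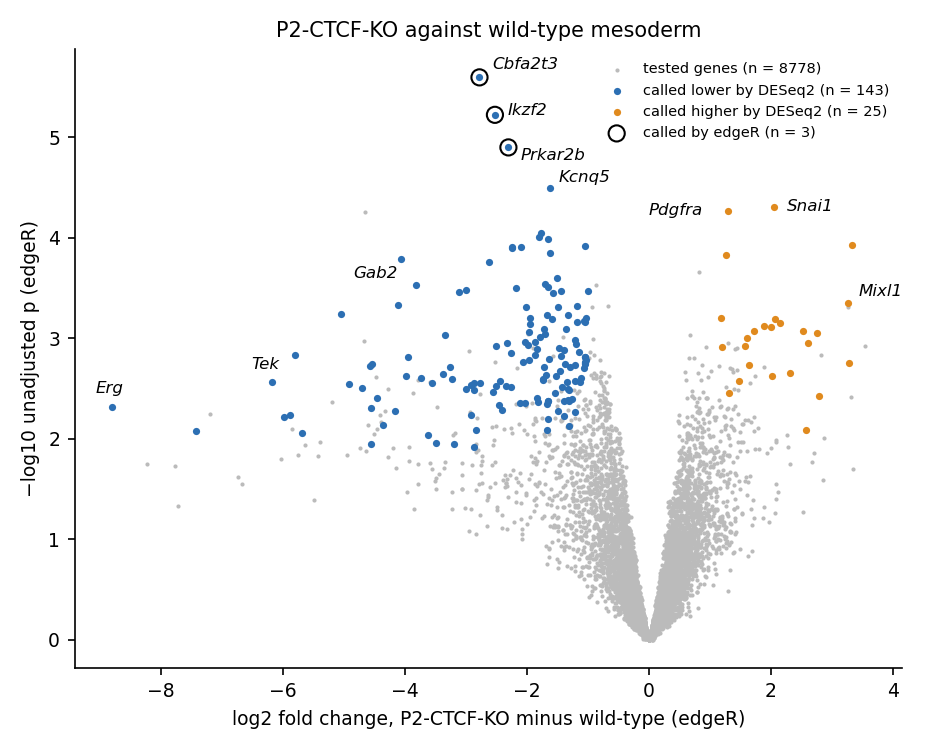
Each point is a gene tested in P2-CTCF-KO against wild-type mesoderm, by its log2 fold change (x) and the −log10 of its unadjusted p (y), both from edgeR. The 3 genes called by edgeR (circled) lie highest on the left, the 143 genes DESeq2 called lower are blue and the 25 it called higher are orange; fold changes of genes with 0 counts in P2-CTCF-KO, such as Erg, depend on edgeR's prior count.

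Beside the 3 genes above, the lower genes with the smallest DESeq2 p-values encoded a potassium channel, a signalling adaptor and proteins of RNA, matrix and actin. Kcnq5, a voltage-gated potassium channel, was at 22.8, 13.1 and 17.4 CPM in wild-type and at 5.32, 5.23 and 6.83 CPM in P2-CTCF-KO clones (log2 fold change -1.62, DESeq2 adjusted p = 7.52e-06, edgeR 0.0701). The lowest wild-type clone was well above the highest P2-CTCF-KO clone. Airn, the noncoding RNA that silences Igf2r in cis, was at 32.0, 10.4 and 35.8 CPM against 2.43, 4.21 and 6.18 CPM (log2 fold change -2.62, DESeq2 adjusted p = 1.28e-05). Airn overlaps Igf2r and Mas1 on the other strand, and the strand setting of the counting is not given in the sources used here, so its counts may hold theirs, while Igf2r overlapped between the groups (49.7, 13.3 and 31.1 CPM against 11.96, 10.6 and 14.3 CPM). Gab2, an adaptor that links receptors such as KIT to PI3 kinase, was at 12.5, 2.20 and 3.45 CPM against 0.304, 0.408 and 0.592 CPM (log2 fold change -3.81, DESeq2 adjusted p = 1.41e-05). The fold rests on the height of B9.3, but C6.1, the lowest wild-type clone, was also above every P2-CTCF-KO clone. Csgalnact1, an enzyme of chondroitin sulfate synthesis, was at 10.8, 0.880 and 4.596 CPM against 0.304, 0.204 and 0.430 CPM. Ptpre, a tyrosine phosphatase, was at 2.54, 1.23 and 3.87 CPM against 0, 0.136 and 0.323 CPM. The RNA-binding protein genes Rbms3 and Mbnl1, Ppp1r9a, which encodes the actin-binding neurabin, and Arhgap6 were likewise without overlap, with log2 fold changes of -2.09, -3.11, -1.76 and -2.25. Cped1, like Erg, had 0 counts in all P2-CTCF-KO clones, against 1.96, 0.176 and 0.681 CPM in wild-type clones (47, 2 and 16 counts). It was at least 5.44-fold lower than the wild-type mean by the same floor, or 2.485-fold without B9.3, and C6.1 again lay under the floor. Csgalnact1, Ptpre and Arhgap6, and of the genes named below Pdgfra, Cdh5, Zeb1, Tet3 and Plxna4, overlap other entries of the table in part, so their counts carry the same uncertainty, while Cbfa2t3, Ikzf2, Prkar2b, Kcnq5 and Gab2 overlap none.

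The higher genes with the smallest DESeq2 p-values included a receptor, an inducer of the mesenchymal state and developmental transcription factors. Pdgfra, the PDGF receptor of early and paraxial mesoderm, was at 3.95, 6.34 and 4.17 CPM in wild-type and at 12.2, 12.6 and 10.2 CPM in P2-CTCF-KO clones (log2 fold change 1.29, SE 0.20, DESeq2 adjusted p = 5.03e-05, edgeR 0.0701). Snai1, a repressor that drives cells out of the epithelium at gastrulation, was at 0.666, 1.41 and 0.894 CPM against 5.22, 2.79 and 3.71 CPM (log2 fold change 2.06, SE 0.32, DESeq2 adjusted p = 0.000122, edgeR 0.0701). These were the 2 higher genes called whichever clone was left out. Mixl1, a homeobox gene of the primitive streak, was at 0.541, 3.34 and 1.02 CPM against 7.40, 23.7 and 11.2 CPM (log2 fold change 3.26, DESeq2 adjusted p = 0.000132), and its lowest P2-CTCF-KO clone was above its highest wild-type clone. Six2 was at most 0.352 CPM in wild-type clones and at 0.912, 2.11 and 1.45 CPM in P2-CTCF-KO clones. Plxna2, a semaphorin receptor, was at 2.29, 5.37 and 2.51 CPM against 18.3, 8.09 and 9.73 CPM. Ctsc, Sall1, Cachd1, Fzd7, Lmo1 and Tdgf1 were also among the 12, with log2 fold changes from 1.20 to 3.28, and in each the groups did not overlap. In 20 of the 25 higher genes C6.1 was the highest wild-type clone.

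Hemato-endothelial transcription factors were the list with the most calls. Of 34 listed genes 25 passed the filter on low counts, edgeR called Cbfa2t3 and Ikzf2 lower, DESeq2 called 8 lower and 0 higher, and in 18 all P2-CTCF-KO clones lay below all wild-type clones and in 0 above. Over all genes tested, DESeq2 called 2.0% lower and 0.349% higher, 10.12% lay wholly below and 9.22% wholly above. The median log2 fold change of the 25 was -1.89, beside 0.01 over all genes tested, and the same with Erg and Sox18, at 0 in all P2-CTCF-KO clones, at their bounds. Genes such as Erg, Sox18 and Mecom passed the filter mainly through wild-type and P1-CTCF-KO clones. Their membership among the tested genes thus depends on the difference itself, and the median and the count wholly below follow in part from it. Mecom, a zinc finger regulator of blood stem cells, was at 20.1, 1.06 and 5.06 CPM in wild-type and at 0.557, 0.476 and 0.108 CPM in P2-CTCF-KO clones (log2 fold change -4.54, DESeq2 adjusted p = 0.00999). Sox7, an endothelial SOX factor, was at 3.08, 0.792 and 1.02 CPM against 0.0507, 0.204 and 0.430 CPM (DESeq2 adjusted p = 0.0472). Tal1 and Fli1, at the center of the program, did not pass either test, although their groups did not overlap. Tal1 was at 1.79, 2.29 and 1.87 CPM against 0.101, 0.272 and 1.18 CPM (log2 fold change -1.89, edgeR adjusted p = 0.179, DESeq2 0.0679). Fli1 was at 22.7, 2.29 and 9.23 CPM against 0.101, 1.09 and 1.72 CPM (log2 fold change -3.59, edgeR adjusted p = 0.138, DESeq2 0.0503). The partners Cbfb and Lmo2 had log2 fold changes of -0.41 and -0.77, also short of the threshold.

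Endothelial surface and junction genes had 0 calls by edgeR, 5 lower and 0 higher calls by DESeq2 (2.0% and 0.349% of all genes) and 8 members wholly below (10.12% of all), among the 14 of 26 genes that passed the filter. Genes such as Cdh5 and Tie1 passed the filter mainly through wild-type B9.3 and P1-CTCF-KO clones, so their membership among the tested genes depends on the difference itself, as it does for Erg above. The median log2 fold change of the 14 was -4.94. Vwf, at 0 counts in all P2-CTCF-KO clones, enters that median by a fitted value, and with Vwf at its bound from 3 counts per library the median was -4.58. Tek, the angiopoietin receptor, was at 14.98, 0.440 and 1.57 CPM in wild-type and at 0.152, 0.0680 and 0 CPM in P2-CTCF-KO clones (DESeq2 adjusted p = 0.00838, edgeR 0.138). Calcrl, a receptor for adrenomedullin, was at 13.3, 0.704 and 2.08 CPM against 0.203, 0.272 and 0.161 CPM. Cdh5, the cadherin of endothelial junctions, was at 19.7, 0.264 and 1.83 CPM against 0.0507, 0.0680 and 0.215 CPM. In each the wild-type clones themselves differed widely, B9.3 the highest and C6.1 the lowest. Tie1 had 2 counts over the P2-CTCF-KO clones together, against 136, 1 and 12 counts in the wild-type clones. The summed level of the 26 genes was 146, 16.7 and 31.8 CPM in the wild-type clones, 47.8, 23.4 and 101 CPM in the P1-CTCF-KO clones E7.1, E7.2 and E9.1 and 7.04, 10.4 and 13.2 CPM in the P2-CTCF-KO clones. Of the 26 genes 0, 10 and 3 were at 0 in the wild-type clones and 11, 13 and 11 in the P2-CTCF-KO clones. In bulk RNA, fewer cells of a type and less RNA per cell cannot be told apart, and the part of an endothelial fraction in the other lower genes was not tested. Within VEGF, angiopoietin and apelin signalling, 12 of 18 genes were tested, DESeq2 called Flt1, Tek and Tie1 lower, and the VEGF co-receptor gene Nrp1 (log2 fold change -0.30) and Kdr were not called.

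Primitive streak and nascent mesoderm genes had a median log2 fold change of 2.76 over the 13 of 25 genes that passed the filter, with 0 calls by edgeR and 6 higher and 0 lower by DESeq2 (0.349% and 2.0% of all genes), namely Mixl1, Snai1, Eomes, Tdgf1, Dkk1 and T. In 11 of the 13 all P2-CTCF-KO clones lay above all wild-type clones, against 9.22% of all genes tested. Genes such as Mesp1 passed the filter mainly through the P2-CTCF-KO clones, so their membership among the tested genes depends on the difference itself. Tdgf1, the Nodal co-receptor Cripto, was at 0.208, 0.704 and 0.0851 CPM in wild-type and at 3.40, 2.85 and 1.88 CPM in P2-CTCF-KO clones (DESeq2 adjusted p = 0.0138). Dkk1, a secreted Wnt inhibitor, was at 0.291, 0.704 and 0.213 CPM against 1.22, 2.17 and 1.51 CPM (DESeq2 adjusted p = 0.0160). Mesp1, a driver of cardiac and hematopoietic mesoderm, was at 0.0416, 0.616 and 0 CPM against 1.93, 1.22 and 1.45 CPM and was not called (edgeR adjusted p = 0.152, with no adjusted p from DESeq2). Lhx1 (0, 1.06 and 0.340 CPM against 6.03, 4.96 and 2.21 CPM) and Wnt3 (0.624, 3.34 and 2.298 CPM against 7.96, 5.64 and 5.11 CPM) were not called either. The posterior homeobox gene Cdx2 went the other way, at 0.624, 0.176 and 1.23 CPM against 0.152, 0.136 and 0.376 CPM, with overlap. The summed level of the 25 genes was 4.54, 20.4 and 8.94 CPM in wild-type clones, 11.2, 19.1 and 9.56 CPM in P1-CTCF-KO clones and 53.5, 71.6 and 44.6 CPM in P2-CTCF-KO clones. The summed level of 20 pluripotency genes was likewise above all wild-type clones, at 43.0, 46.1 and 41.2 CPM against 14.6, 31.7 and 22.6 CPM, of which 5 genes were tested and Tdgf1 alone was called, by DESeq2. Of the cardiac and lateral plate list 11 genes were tested and 0 called, with a median of -0.44, or -0.37 with Gata5, at 0 in all P2-CTCF-KO clones, at its bound, and of the paraxial and intermediate list 4 were tested and Pdgfra was called higher by DESeq2.

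The calls in the signalling lists stand beside the 2.0% of all genes that DESeq2 called lower and the 0.349% it called higher. Among these lists, receptor tyrosine kinases and PI3K to AKT signalling had the most calls, with 5 lower and 1 higher by DESeq2 of 29 tested, 0 by edgeR and a median of -0.60. Next to Gab2 and Pdgfra these included the adaptor gene Gab1 (10.2, 4.58 and 4.72 CPM against 3.04, 2.72 and 2.097 CPM) and the genes Grb10 and Kit. Kit, the SCF receptor of blood progenitors, was at 13.2, 1.06 and 4.08 CPM in wild-type and at 0.760, 0.476 and 1.08 CPM in P2-CTCF-KO clones, where C6.1 lay within the P2-CTCF-KO range (DESeq2 adjusted p = 0.0421, edgeR 0.146). Of 34 tested genes of the BMP, Nodal and TGF-beta pathway, DESeq2 called 3 lower: Tgfb2, a ligand, Smad3, its signal transducer, and Acvrl1, the endothelial receptor ALK1. Tgfb2 was at 7.57, 10.12 and 13.4 CPM against 3.09, 5.03 and 6.08 CPM, one of the genes in which C6.1 was not the lowest wild-type clone. Of 30 tested Wnt pathway genes, DESeq2 called Fzd7, a receptor, and Dkk1 higher, at a list median of -0.19, and the target Axin2 was not called (1.25, 7.92 and 6.81 CPM against 12.2, 8.09 and 9.95 CPM, edgeR adjusted p = 0.429). Of 15 tested FGF pathway genes 0 were called by either tool, while 7 lay wholly above and 1 wholly below (9.22% and 10.12% of all genes tested), with a median of 0.51. Dusp4 and Dusp6, feedback phosphatases of ERK, had log2 fold changes of 1.02 and 0.90 (edgeR adjusted p = 0.138 and 0.321). Notch pathway genes (14 tested) had 0 calls by either tool and a median of -0.11, and of 6 tested retinoic acid genes DESeq2 called Cyp26a1, which degrades retinoic acid, higher (0.166, 1.23 and 0.553 CPM against 2.99, 2.38 and 1.67 CPM). In calcium, phospholipase C and protein kinase C signalling 1 of 26 tested genes was called by DESeq2, the calcium channel gene Itpr2, which was lower.

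Genes of matrix and guidance followed, all by DESeq2 with 0 edgeR calls. Over all genes, DESeq2 called 2.0% lower and 0.349% higher. Of 34 tested extracellular matrix and integrin genes 5 were lower and 0 higher, at a median of -0.90. Fbn1 and Fbn2, which encode the microfibril proteins fibrillin 1 and 2, were at 11.2, 6.69 and 8.81 CPM against 2.48, 2.92 and 4.09 CPM and at 26.6, 13.2 and 22.4 CPM against 5.83, 7.54 and 8.82 CPM (DESeq2 adjusted p = 0.0013 and 0.00198). Both were called in every fit that left out a clone. Col18a1 and Lama4, of the basement membrane, had log2 fold changes of -2.27 and -1.96. Axon guidance genes (33 tested, median -0.25) were split, with the semaphorin receptors Plxna2 and Plxna4 higher, and the netrin receptor gene Unc5c and Plxnc1 lower. Unc5c was at 37.3, 48.9 and 61.4 CPM in wild-type and at 7.96, 7.47 and 25.01 CPM in P2-CTCF-KO clones, with E9.1 above both other P2-CTCF-KO clones and still below all wild-type clones.

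**Figure D3:**
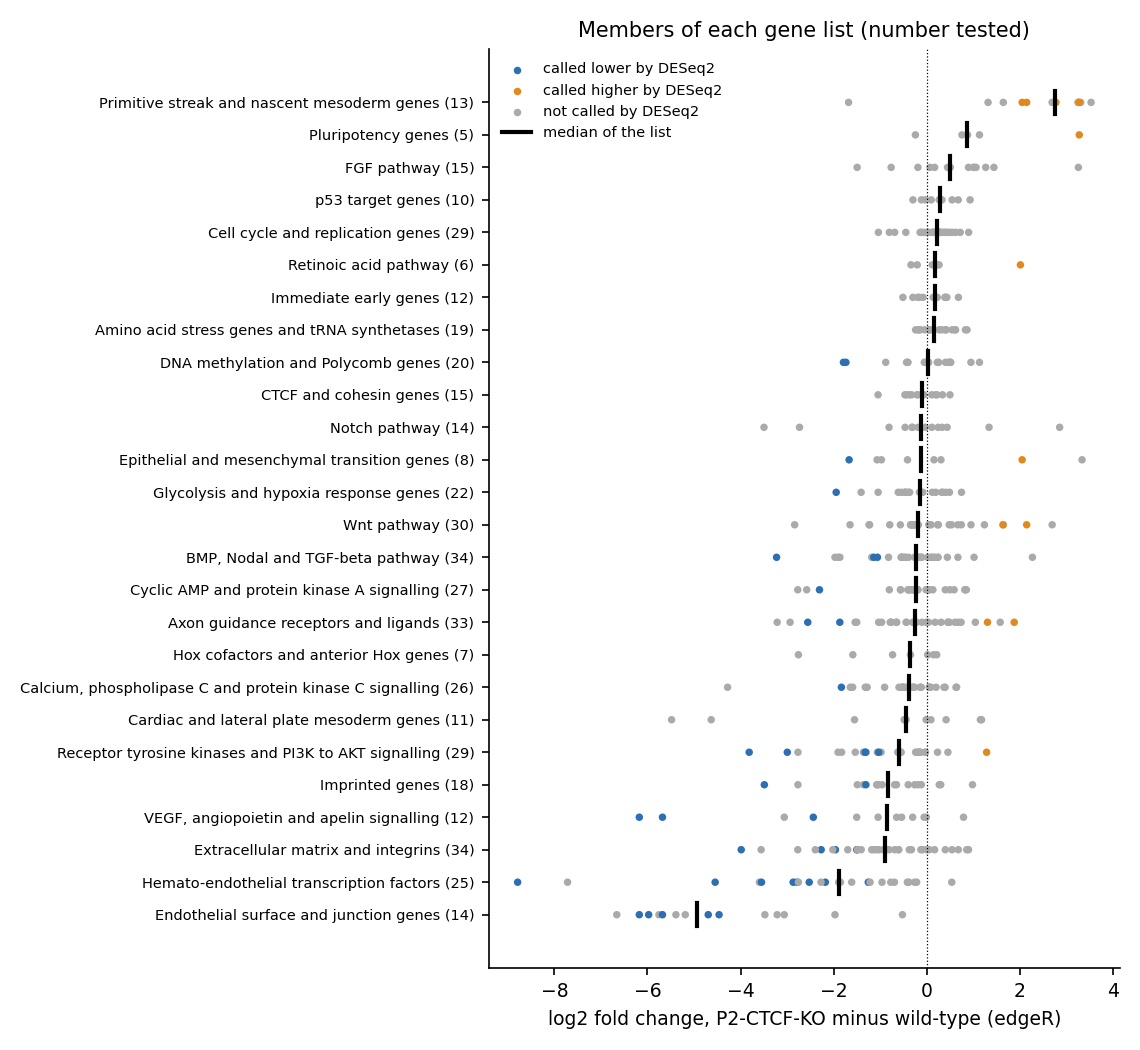
Log2 fold change of P2-CTCF-KO minus wild-type mesoderm (x, edgeR) for each tested member (point) of the lists described here with at least 5 tested members, with the list median as a bar and DESeq2 calls in color; the dotted line is the median of all genes tested, 0.01. The medians of endothelial and hemato-endothelial genes lie at -4.94 and -1.89 and that of primitive streak genes at 2.76, each over the members that passed the filter on low counts.

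Further lists cover the cell cycle, stress, metabolism and chromatin, and their calls stand beside the 2.0% of all genes that DESeq2 called lower and the 0.349% it called higher. Of 29 tested cell cycle and replication genes 0 were called by either tool (median 0.23), and so were 0 of 10 p53 target genes (0.28), 0 of 19 amino acid stress and tRNA synthetase genes (0.17), 0 of 12 immediate early genes (0.18), 0 of 7 Hox cofactor and anterior Hox genes (-0.35) and 0 of 15 CTCF and cohesin genes (-0.10). Ctcf itself was at 6.45, 6.60 and 5.40 CPM in wild-type and at 5.42, 6.32 and 5.92 CPM in P2-CTCF-KO clones. Of 22 tested glycolysis and hypoxia genes DESeq2 called Epas1, which encodes the oxygen-regulated factor of endothelium, lower (2.41, 0.880 and 2.17 CPM against 0.456, 0.340 and 0.645 CPM). Of 20 tested DNA methylation and Polycomb genes it called 2 lower, Tet2 and Tet3, oxidases of methylated cytosine, with log2 fold changes of -1.73 and -1.79. Of 18 tested imprinted genes it called 2 lower, Dlk1 and Grb10, and in Grb10 the groups overlapped. Of 8 tested genes of epithelial and mesenchymal transition it called Snai1 higher and Zeb1, another repressor of the epithelial state, lower (20.8, 7.66 and 10.2 CPM against 3.65, 4.35 and 4.30 CPM), so that 2 factors with related roles went in opposite directions. The 3 tested Y-linked genes were present in all 6 libraries and none was called, with summed levels over 7 listed genes of 13.9, 4.49 and 7.83 CPM against 6.49, 7.07 and 5.97 CPM.

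The spread between clones was uneven. Over all tested genes the median SD of log2(CPM + 0.5) was 0.259 in wild-type, 0.212 in P1-CTCF-KO and 0.233 in P2-CTCF-KO clones. Over the 143 genes DESeq2 called lower it was 0.708 in wild-type clones and 0.259 in P2-CTCF-KO clones, with 0.425 in P1-CTCF-KO clones, which took no part in that contrast's means. These genes were called for low levels in P2-CTCF-KO clones, and the added 0.5 CPM compresses the SD at low levels. Their SDs therefore do not compare the spread of the genotypes on equal terms. The median level of these 143 genes was 6.70, 2.46 and 3.96 CPM in wild-type clones, 3.86, 2.21 and 4.54 CPM in P1-CTCF-KO clones and 1.06, 0.816 and 1.18 CPM in P2-CTCF-KO clones, and C6.1 was the lowest wild-type clone in 120 of them. By the number of genes that differed beyond the log2 limit of 1 between a pair of libraries, the wild-type clones were as far from each other as from some P2-CTCF-KO clones. B9.3 and C6.1 differed in 919 genes and C6.1 and C8.1 in 246, while C6.1 differed from P2-CTCF-KO E9.1 in 190. P2-CTCF-KO D10.1 and D2.1 differed in 451 genes and D2.1 and E9.1 in 158, and the largest number, 1225, was between B9.3 and D2.1. Across the 9 mesoderm libraries, a higher summed level of endothelial genes broadly went with a lower one of primitive streak genes, and the P2-CTCF-KO clones lay at one end, with wild-type C6.1 and P1-CTCF-KO E7.2 next to them. Both lists were chosen with earlier results known and hold genes called on these libraries, so the place of the P2-CTCF-KO clones is partly built in. The other clones kept the order less strictly. P1-CTCF-KO E9.1 (101 and 9.56 CPM) was above wild-type C8.1 (31.8 and 8.94 CPM) in both sums.

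**Figure D4:**
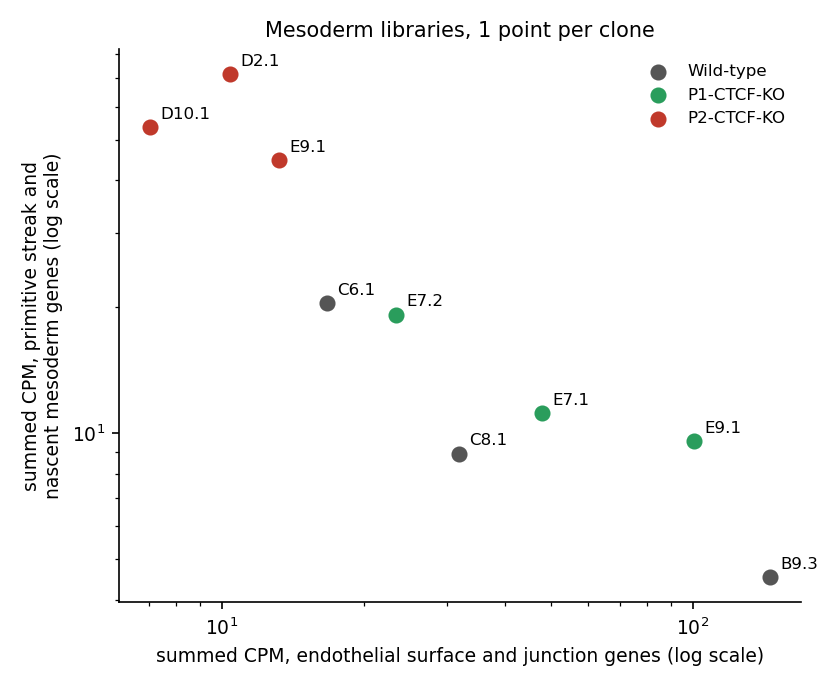
Summed CPM of endothelial surface and junction genes (x) and of primitive streak and nascent mesoderm genes (y), both on log scales, with 1 point for each mesoderm clone, colored by genotype. The P2-CTCF-KO clones lie at upper left (7.04 to 13.2 CPM on x, 44.6 to 71.6 CPM on y) and wild-type B9.3 at lower right (146 and 4.54 CPM).

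The lower genes of mesoderm were read in HPCs, in libraries the mesoderm calls did not use. Of the 143 genes 122 were tested there, with a median log2 fold change of 0.19 beside 0.03 over all genes, and 50 of the 122 were below 0. Of the 25 higher genes 5 were tested in HPCs, with a median of -0.10. Gab2 had a log2 fold change of -0.05 in HPCs, Mbnl1 of -0.27 and Runx1t1 of -0.15, and none of them was called.

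The genes showed no common place in the genome. Cbfa2t3 lies at chr8:125149035-125223009, Ikzf2 at chr1:69577783-69732534 and Prkar2b at chr12:32643335-32746142 of mm9, all on the minus strand and away from Runx1 at chr16:92601710-92826319, and the counts take in their exons and introns alike. Within 2 Mb of Runx1 lie 57 other genes, of which 24 were tested and 0 called by either tool, with log2 fold changes from -0.41 to 0.83 and a smallest unadjusted p of 0.00393. That range leaves out Clic6 and Cbr1, which the paper places at the ends of the Runx1 domain and which the filter on low counts dropped. Clic6 was at 0.125, 0.528 and 0.596 CPM against 0.101, 0.0680 and 0.215 CPM. Cbr1 was at 0.166, 0.264 and 0.0851 CPM against 0.152, 0.340 and 0.269 CPM, and the groups overlapped in both. By chromosome the median log2 fold change ran from -0.15 on chromosome 18 to 0.12 on chromosome 7. Each clone was also set against the mean of the wild-type clones, less its own median deviation over all tested genes. On that scale no clone's median on a chromosome departed from 0 by more than 0.15 (D2.1 on chromosome 11). The DESeq2-lower genes lay on every chromosome listed, 1 to 19 and X, with 4 on chromosome 16.

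Genes called lower were long. The median span was 154 kb for the 143 genes DESeq2 called lower, 18.2 kb for the 25 it called higher and 32.1 kb over 8665 tested genes with 1 locus, and 106 of the 143 (74.1%) spanned over 100 kb against 18.1% of all. With all tested genes in 4 equal classes of span, the median log2 fold change was 0.28 in the shortest, then 0.10, -0.06 and -0.30 in the longest, so the trend was not limited to called genes. Counts over introns grow with span, and the part of span in the calls was not tested. The list calls and medians above stand beside those of all genes whatever their span, so the part of span in them was not tested either.

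**Figure D5:**
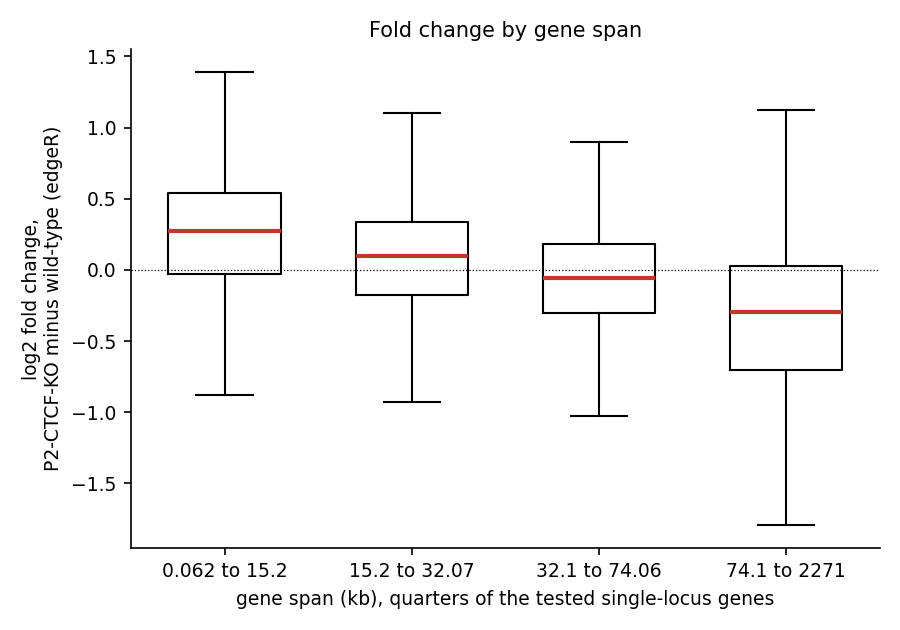
Log2 fold change of P2-CTCF-KO minus wild-type mesoderm (y, edgeR) for tested single-locus genes in 4 equal classes of gene span (x, kb). Boxes give the quartiles with the median in red, whiskers reach the last gene within 1.5 box heights, and the medians step down from 0.28 to -0.30.

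Open chromatin within 1 kb of the start was less frequent among the called genes than among all genes tested, and the gap was smaller within 5 kb. A mesoderm ATAC-seq peak lay within 1 kb of the start of 108 of the 143 lower genes (75.5%, 95% Wilson interval 67.9 to 81.8) and of 18 of the 25 higher genes (72.0%, 52.4 to 85.7), against 89.8% of 8665 tested genes. Within 5 kb it was 86.7% of the lower genes (80.2 to 91.3) and 92.0% of the higher genes (75.03 to 97.8), whose interval takes in the 94.8% of all genes. In HPCs the shares within 1 kb were 49.7%, 44.0% and 68.0%. A CTCF peak of 416B cells lay as near to 12.6% of the lower genes and to 4 of the 25 higher genes, against 18.8% of all. Cbfa2t3 and Prkar2b had a mesoderm ATAC-seq peak within 1 kb of the start, Ikzf2 had its nearest 1235 bases upstream, and none of the 3 had a CTCF peak of 416B cells within 1 kb. Within 5 kb 2 of the 3 had one, as did 39.75% of all tested genes. The intervals cover counting error alone, and the peak lists hold positions without heights. The ATAC-seq samples are labelled wild-type, but by the study's methods they came from a reporter line of E14-TG2a. That line carries a Venus reporter at Runx1 and an mCherry transgene with a Runx1 enhancer. The CTCF peaks came from 416B cells, so the lists say nothing of peaks in P2-CTCF-KO clones.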

How the data were processed

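Counts per gene were deposited by the authors for 23 poly(A)-minus RNA-seq libraries (25146 entries, 0 count columns without a sample). Per the study's methods, poly(A) RNA was removed and a directional kit was used. The labels name a ribosomal depletion kit, which the methods state for undifferentiated cells and 416B cells, and whether it was used on sorted cells is not given in the sources used here. By the same methods reads were mapped to mm9 with STAR, PCR duplicates were removed and featureCounts counted exons and introns. The strand setting and annotation of the counting are not given in the sources used here. The deposited peak lists (Bowtie2, MACS2) hold mm9 positions only, without heights. The study's methods name DESeq2 for its comparison.

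The counts were tested here as deposited with edgeR 4.0.16 (R 4.3.3): filterByExpr with a minimum count of 10, TMM scaling, the quasi-likelihood test, an adjusted p (Benjamini-Hochberg) under 0.05 and a log2 fold change beyond 1. The 9 mesoderm libraries shared 1 fit, as did the 12 HPC libraries, and a fit of all 21 tested the stage difference. Each SE is the log2 fold change divided by the square root of F. DESeq2 1.42.0 was the alternative tool. Of the entries, 187 lay at several loci or were ribosomal RNA, 114 of them tested. They took up most counts, so CPM are on the TMM scale, and genes at a few CPM rest on few counts, which limits their precision. Folds against 0 counts used a floor of 3 counts per library. The code was tested on simulated data, and positions were handled with Python 3.11.15.

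Members and gene lists were chosen with earlier results of these data known. Named genes are Cbfa2t3, Ikzf2 and Prkar2b, the 12 higher and 12 lower called genes with the smallest adjusted p whose groups did not overlap, up to 4 called members of each list or its defining members, and called genes within 2 Mb of Runx1. With 3 edgeR calls, the rule was applied to DESeq2 calls after the values were seen, and the motifs were also chosen then. Alternatives were scaling, filter, tool, libraries in the fit and leaving out each clone. Some genes and 1 gene list are not reported here.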

Additional observations from a re-analysis of the deposited data

Results flagged for a closer look

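The effect of the P2-CTCF-KO genotype differed between mesoderm and HPCs for 2 genes, by a test of the difference itself in a fit of 21 libraries. For Cbfa2t3 the log2 fold change in mesoderm was lower than that in HPCs by a difference of -2.64 (SE 0.34, edgeR adjusted p = 0.00214), with all 3 P2-CTCF-KO mesoderm clones below all wild-type mesoderm clones and overlapping groups in HPCs. For Ikzf2 the difference was -2.54 (SE 0.38, edgeR adjusted p = 0.00789), with the same order of the clones. The mesoderm libraries of the compared genotypes held 5 to 96 counts of these genes each, and the HPC libraries were at 8.47 to 23.8 CPM on the scale of their own stage.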

How the results depend on the processing

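Of 2323 values of single genes called by either tool under the alternatives, 0 changed sign, 1868 kept their side of the threshold, 19 fell short of it and 436 passed it where edgeR's test of 9 libraries had not. Most of the 1868 were genes that edgeR had not called and that stayed so. The 19 all belonged to the 3 genes it had called, at 6, 6 and 7 of 14 alternatives for Cbfa2t3, Ikzf2 and Prkar2b. The count of 3 genes lower in P2-CTCF-KO mesoderm did not hold to the same degree. It became 168 with DESeq2 (25 higher, 143 lower), 431 without a filter on low counts (87 higher, 344 lower), 0 with the 6 libraries of both genotypes alone and 9, all lower, with all 21 libraries in 1 fit. It stayed at 3 with RLE scaling, without multi-locus entries and without a fold limit. Leaving out each clone gave 0 to 127 genes (0 to 30 higher, 0 to 97 lower): 127 without wild-type C6.1, 7 without B9.3, and 0 without C8.1, D10.1, D2.1 or E9.1. In settings chosen after seeing the data, a robust prior gave 7 genes (2 higher, 5 lower) and leaving out C6.1 and D2.1 together gave 0 in edgeR and 199 in DESeq2, and the DESeq2 count of 168 ran from 48 to 385 without each clone (6 to 74 higher, 42 to 311 lower) and was 141 with 6 libraries. The count of 0 for P2-CTCF-KO against P1-CTCF-KO became 92 with DESeq2 and 267 without a filter, that in HPCs stayed at 0, and the stage difference had 2 or 3 genes. Over 14 alternatives the log2 fold change of Cbfa2t3 ran from -3.07 to -2.56 (adjusted p from 5.73e-06 to 0.140), that of Ikzf2 from -2.74 to -2.29 (to 0.174) and that of Prkar2b from -2.63 to -2.16 (to 0.242), and they were called in 8, 8 and 7 of these. The cause of these shifts was not tested. Depth limits genes at under 1 CPM, which hold few counts in any library. No paired analysis was possible because the clones differ between genotypes, and the name E9.1 marks a different clone in P1-CTCF-KO and P2-CTCF-KO. The stage difference can be paired, since each clone was sampled at both stages. With the clone as a replicate block, a setting chosen after seeing the data, 2 genes were called, again Cbfa2t3 (log2 difference -2.71, SE 0.332, edgeR adjusted p = 0.0154) and Ikzf2 (-2.43, SE 0.321, adjusted p = 0.0174), so the block changed no call.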

Other observations

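Other genes called lower by DESeq2 belonged to no list and were chosen after their values were seen. Nfia and Nfib encode transcription factors of the nuclear factor I family. Nfia was at 11.6, 5.02 and 7.83 CPM in wild-type against 3.65, 1.63 and 2.85 CPM in P2-CTCF-KO clones (Nfia, log2 fold change -1.58). Nfib was at 14.8, 2.99 and 2.04 CPM against 0.659, 1.155 and 0.968 CPM (log2 fold change -2.87), and its mean was 7.15-fold lower in P2-CTCF-KO clones, or 2.71-fold without B9.3. Smarca2, an ATPase of SWI/SNF chromatin remodelling, was at 3.74, 1.67 and 4.43 CPM against 0.760, 0.680 and 1.29 CPM (log2 fold change -1.87), and Nfia and Smarca2 each overlap another entry in part. Stat5b, a transducer of cytokine signals, was at 2.25, 3.34 and 4.30 CPM against 1.62, 0.883 and 1.29 CPM (log2 fold change -1.36). Sox6, a SOX factor of erythroid and other lineages that overlaps the antisense entry Sox6os, was at 14.5, 0.528 and 2.08 CPM against 0.304, 0.340 and 0.108 CPM. The insulin-like growth factor gene Igf1 was at 7.86, 0.264 and 1.83 CPM in wild-type clones and had 3 counts over the P2-CTCF-KO clones together, and Hoxd3, which overlaps neighbouring Hox entries, had 2.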
